A study of Mus musculus with 10 samples.

Results

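The nuclear-encoded respiratory chain was followed here complex by complex in cultured mouse cortical neurons that carried a control virus or an H2BE virus and were left unstimulated or given BDNF. Members were chosen by name: Nduf subunits of the a, b, c, s and v series, Sdh, Uqcr, Cox4 to Cox8 and Atp5 genes, without assembly factors named Ndufaf and without pseudogenes marked -ps. The rule took 91 of the 21862 genes in the authors' normalized table, after 2 -ps names were left out. Of these, 81 code for structural subunits, with 35 in complex I, 4 in complex II, 8 in complex III, 17 in complex IV and 17 in complex V. The other 10 are the assembly factors Sdhaf1 to Sdhaf4, the inhibitor Atp5if1, the supercomplex factor Cox7a2l, the Ndufa4 relative Ndufa4l2, and 3 gene copies named Ndufb11b, Ndufb4c and Ndufs6b. The name rule does not reach Cyc1, Ndufab1 or the subunits encoded by mitochondrial DNA, which are given below beside the members.

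Complex I (NADH dehydrogenase) and complex II (succinate dehydrogenase) pass electrons to ubiquinone, complex III passes them on to cytochrome c, and complex IV (cytochrome c oxidase) hands them to oxygen. Complexes I, III and IV pump protons across the inner mitochondrial membrane, and complex V (ATP synthase) makes ATP from the returning flow. Complexes I, III, IV and V mix nuclear subunits with subunits encoded by mitochondrial DNA, whereas complex II is wholly nuclear, and neurons depend heavily on this system for ATP.

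RNA came from primary cortical neurons of wild-type C57BL/6J mouse embryos (E16.5). All cultures had AraC (0.5 µM), which kills dividing cells, and all were infected with a lentivirus, the control virus in 2 groups and a virus that expresses the histone H2B variant H2BE from a constitutively active promoter in the others. BDNF, a neurotrophin that signals through TrkB, was added to one group with each virus, and polyA RNA was taken 24 h later. The groups are Control (control virus, unstimulated, 3 libraries), BDNF (control virus, 3), H2BE (H2BE virus, unstimulated, 2) and H2BE+BDNF (H2BE virus, 2). The viral gene is expressed on top of the neurons' own H2BE and need not reach every cell. Its gene, H2bc21, stood at 5.27 ± 0.0742 CPM (counts scaled to library size; mean ± SD, n = 2) in Control, 3.98 ± 0.15 in BDNF, 39.1 ± 4.97 in H2BE and 33.6 ± 2.23 in H2BE+BDNF.

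Control replicate 3 and BDNF replicate 3 hold subsets of the counts of replicate 1, with 0 of 48526 genes above it in either case, so each group counts as 2 samples. Below, the level given for Control or BDNF replicate 1 is the mean of it and its subset, and tests used replicate 1 alone; the H2BE and H2BE+BDNF samples are replicates 2 and 3. Total counts ran from 5058074 to 14142545 a library. Nothing in the labels says that the replicates are separate cultures, so p-values measure the spread between these samples only. Among the 13452 genes with enough counts to test were 83 members, of which 77 are structural subunits: all 35 of complex I, 4 of complex II, 8 of complex III and 17 of complex V, but 13 of 17 of complex IV. The 8 members not tested were Cox4i2, Cox7a1, Cox7b2, Cox8b, Ndufb11b, Ndufb4c, Ndufs6b and Ndufa4l2, each with 4 to 60 counts over all 10 libraries. Many respiratory genes have processed pseudogenes of near-identical sequence, and how the authors' counting split such reads is not given in the sources used here, so single-gene levels carry that uncertainty.

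Many promoters of this system are known to bind NRF1, GABP or YY1, and 63 of the 77 tested subunits could be matched to a promoter of the RefSeq table (build GRCm38.p6; 250 bases before to 50 after the start). Letters of these factors were searched on both strands: the NRF1 palindrome (its letters are the capitals of Ndufa11 below), the shorter GCATGCGC that it contains, CCGGAAGT for GABP, and the YY1 consensus. Some genes have more than 1 window, and a run in any of them was counted for the gene. At least 1 of the runs was found for 19 of 63 subunit genes (30.2%), against 10.4% of 17492 protein-coding genes. The latter were not limited to genes expressed here. The share was 7.94% against 1.47% for the NRF1 palindrome, 15.9% against 3.94% for GCATGCGC, 7.94% against 5.69% for CCGGAAGT and 7.94% against 1.41% for the YY1 consensus. A match is a run of letters and not a measured binding site. The 250 bases before the start of 3 subunits, from complexes I, III and IV, are shown because each holds such a run (in capitals) and each gene changed in a comparison below. They lie at chr17:56717512-56717761 (Ndufa11, plus strand, NRF1 letters from base -60), chr4:116075071-116075320 (Uqcrh, minus strand, GABP letters on the opposite strand from base -11) and chr5:115348959-115349208 (Cox6a1, minus strand, NRF1 letters from base -162).
Ndufa11: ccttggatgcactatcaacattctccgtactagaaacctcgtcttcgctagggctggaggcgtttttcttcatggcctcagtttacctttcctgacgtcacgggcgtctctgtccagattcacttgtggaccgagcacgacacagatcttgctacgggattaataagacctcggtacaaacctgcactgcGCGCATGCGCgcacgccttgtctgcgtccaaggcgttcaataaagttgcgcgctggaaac
Uqcrh: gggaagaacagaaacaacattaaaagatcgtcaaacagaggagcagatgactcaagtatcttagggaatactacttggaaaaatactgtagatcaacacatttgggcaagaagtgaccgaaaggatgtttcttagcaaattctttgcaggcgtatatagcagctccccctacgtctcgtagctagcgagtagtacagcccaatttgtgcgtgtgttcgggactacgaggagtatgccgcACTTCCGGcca
Cox6a1: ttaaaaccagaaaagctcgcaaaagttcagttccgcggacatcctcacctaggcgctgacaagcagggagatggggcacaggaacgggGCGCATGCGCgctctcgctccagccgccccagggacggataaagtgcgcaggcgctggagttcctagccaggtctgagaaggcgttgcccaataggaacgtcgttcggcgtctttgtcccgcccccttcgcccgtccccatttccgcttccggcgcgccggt
The same search found GCATGCGC at base -54 of Sdhb and the NRF1 palindrome at base -50 of Atp5me. None of these letters was found in the window of Ndufb7, the subunit with the largest fall in H2BE.

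Subunit RNA differed widely within each complex when levels were put per kilobase of transcript. The median over subunits was 90.6 CPM per kb in complex I, 100.5 in complex II, 183.3 in complex III, 214.4 in complex IV and 197.5 in complex V, against 10.2 over all tested genes with a length. Atp5f1b, the catalytic beta subunit of ATP synthase, had the highest level of all at 775.9 CPM per kb, and Atp5mc2, one of 3 genes for the c-ring, the lowest of complex V at 28.9. In complex IV the levels ran from 516.9 CPM per kb for Ndufa4 down to 4.57 for the tissue isoform Cox6b2. Complex III was the most even, from 273.3 CPM per kb for the hinge protein Uqcrh to 111.1 for the Rieske iron-sulfur protein Uqcrfs1. Complex I ran from 193.0 CPM per kb for Ndufc2 to 9.36 for Ndufb4, and complex II from 149.7 for Sdhb to 55.1 for Sdhc.

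**Figure D1:**
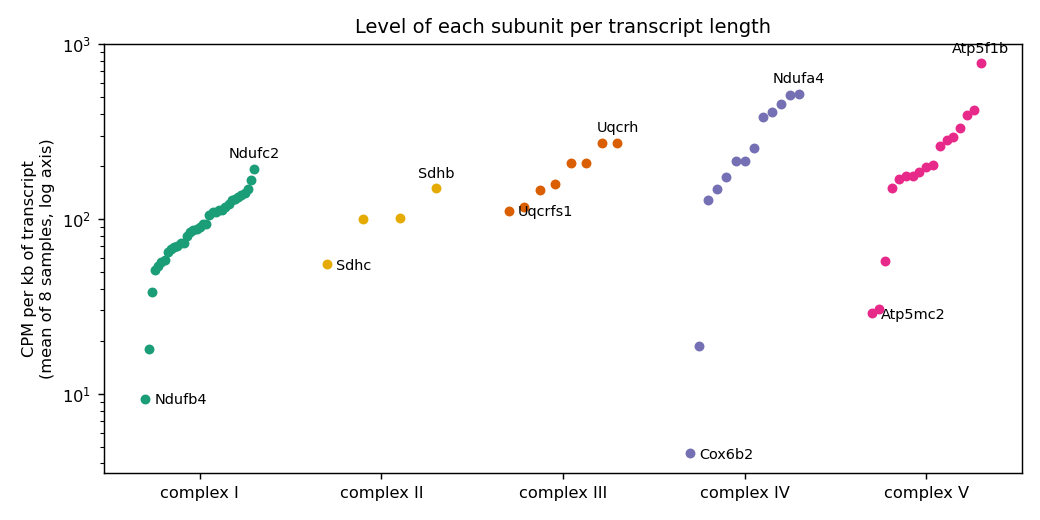
Level of each tested subunit in CPM per kilobase of transcript (mean of 8 samples, log axis), 1 point a subunit, sorted within each complex, with the highest and lowest named. Complex III spans 111.1 to 273.3, and complex IV spans 4.57 to 516.9.

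Summed over the 77 tested subunits, RNA of the chain was lowest in the H2BE group, in each of the 5 complexes. The sum over all subunits was 12700 and 11980 CPM in the Control samples, 11350 and 11780 in BDNF, 10300 and 10530 in H2BE, and 11400 and 11580 in H2BE+BDNF. The H2BE samples lay below every other sample, and the BDNF and H2BE+BDNF samples lay below both Control samples and overlapped each other. As a share of the Control mean, the H2BE mean was 82.9% in complex I, 85.0% in complex II, 84.2% in complex III, 85.9% in complex IV and 84.6% in complex V. With BDNF on top of the H2BE virus the mean stood at 93.5%, 88.8%, 99.6%, 89.2% and 93.8% of Control in the same order. BDNF with the control virus gave 92.5%, 89.9%, 100.1%, 90.6% and 94.9%. The sum of complex III was thus at the Control level in both BDNF groups. The sums of complexes II and IV were at 88.8% to 90.6% of it. Uqcrc1 and Uqcrc2 weigh most in the complex III sum. Uqcrc1 had a mean of 239 CPM in Control, 269 in BDNF and 251 in H2BE+BDNF, and Uqcrc2 had 218, 238 and 235. Of the 8 complex III subunits, 3 were above zero and 5 below in BDNF against Control, with a median of -0.037. In these bulk samples, fewer cells of a type and less RNA per cell cannot be told apart.

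**Figure D2:**
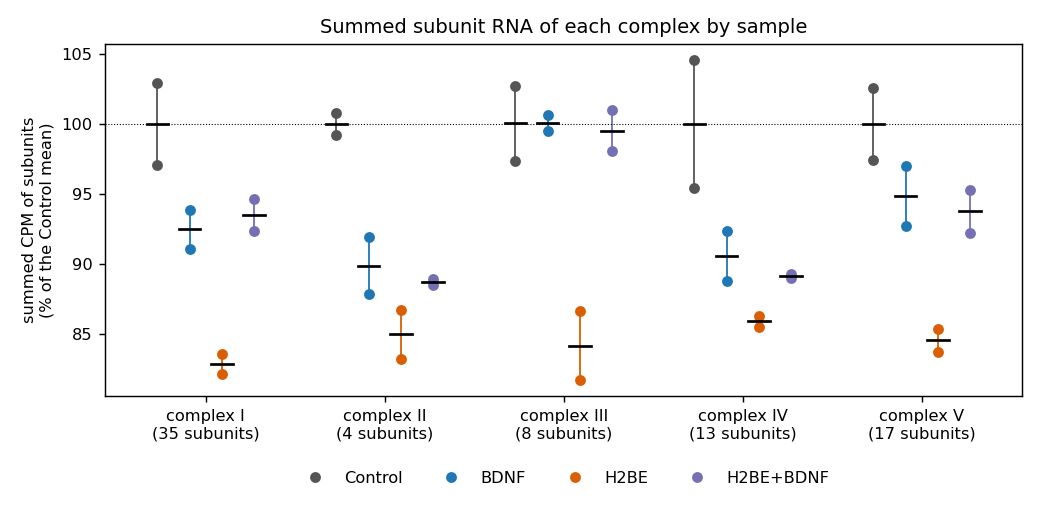
Summed CPM of the tested subunits of each complex as a percent of the Control mean (vertical axis, which does not start at 0), 1 point a sample, bars at the mean of 2 samples. The H2BE samples are the lowest of all samples in every complex. The sum of complex III alone is at the Control level in both BDNF groups, although 5 of its 8 subunits are below zero in BDNF against Control.

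With the H2BE virus and no BDNF, 28 of 77 subunits fell against Control and 0 rose (edgeR, adjusted p under 0.05), 36.4% of subunits against 0.989% of all tested genes called lower and 1.54% called higher. Of tested genes with a transcript under 1 kb, as 53 of the 77 subunits have, 4.44% were called lower and 0.0822% higher. At an unadjusted p of 0.05 the subunit counts were 63 lower and 0 higher, and DESeq2 called 24 lower and 0 higher. The median log2 fold change was -0.25, against 0.0001 over all tested genes, and 74 of 77 subunits were below zero. Both H2BE samples lay below both Control samples for 67 subunits and above them for 0, where 25.6% and 24.5% of all tested genes did so. The fall was spread over the complexes, with 12 of 35 subunits called in complex I, 2 of 4 in complex II, 3 of 8 in complex III, 2 of 13 in complex IV and 9 of 17 in complex V. The medians were close to one another: -0.24, -0.23, -0.28, -0.23 and -0.27. The calls rest on 2 libraries: the subunit calls were lost without Control replicate 1 and without H2BE replicate 2. Nearly all calls of this comparison over all tested genes were lost there too, so the loss is not particular to the subunits. The same holds for the losses by complex and by gene given below for H2BE against Control. The median of the subunits stayed between -0.30 and -0.18 whichever library was left out. Subunit calls were fewer without Control replicate 2 or H2BE replicate 3 and more without either BDNF library, as were calls over all tested genes.

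BDNF with the control virus gave mostly lower subunit RNA. In this comparison 19 of 77 subunits fell (24.7%; 14.7% of all tested genes were called lower) and 2 rose (2.60%; 16.8% of all tested genes were called higher). The median was -0.098 against -0.0098 over all tested genes. Most subunits have short transcripts, and of tested genes with a transcript under 1 kb 18.6% were called lower and 5.83% higher, with a median of -0.12. Both BDNF samples lay below both Control samples for 43 subunits and above for 6, against 31.8% and 32.4% of all tested genes. The falls came from complex I (6 of 35), complex II (2 of 4), complex III (1 of 8), complex IV (5 of 13) and complex V (5 of 17), and the rises were Uqcrc1 in complex III and Atp5mc1 in complex V. DESeq2 called 7 subunits lower and 1 higher. Over all genes fitted it called 987 lower and 1525 higher, against 1971 and 2257 with edgeR. Lower calls of subunits were fewer without Control replicate 1 or BDNF replicate 2, as were lower calls over all tested genes. The median of the subunits stayed between -0.14 and -0.065 whichever library was left out.

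Under the H2BE virus, BDNF went with higher subunit RNA. The H2BE samples are the reference here and the tested arm of H2BE against Control, so both comparisons share them. In H2BE+BDNF, 28 of 77 subunits rose (36.4%; 13.5% of all tested genes were called higher) and 1 fell (1.30%; 12.4% were called lower). Of tested genes with a transcript under 1 kb, 13.6% were called higher and 4.85% lower. The subunit median was 0.15 against -0.0001 over all tested genes. Both H2BE+BDNF samples lay above both H2BE samples for 52 subunits and below for 6, against 32.7% and 30.8% of all tested genes. By complex, the subunits that rose were 11 of 35 in complex I, 1 of 4 in complex II, 5 of 8 in complex III, 4 of 13 in complex IV and 7 of 17 in complex V. The medians were 0.15, 0.01, 0.24, 0.03 and 0.16. DESeq2 called 18 subunits higher, and over all genes fitted it called 1166 higher, against 1822 with edgeR. Subunit calls were fewer without H2BE replicate 2, as were calls over all tested genes. The median of the subunits stayed between 0.13 and 0.18 whichever library was left out.

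Between the viruses in the presence of BDNF no subunit was called, in an arm where 4 of 13452 genes were called at all (0.0149% higher and 0.0149% lower). At an unadjusted p of 0.05, 3 subunits were higher and 4 lower, DESeq2 called 0, and the median was -0.002. Both H2BE+BDNF samples lay above both BDNF samples for 20 subunits and below for 13, against 18.7% and 22.9% of all tested genes. The median of the subunits stayed between -0.019 and 0.0029 whichever library was left out.

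The difference between the BDNF responses, that under the H2BE virus minus that under the control virus, was tested directly. It was above zero for 75 of 77 subunits, with a median of 0.25 against -0.0078 over all tested genes. Of tested genes with a transcript under 1 kb, 2.55% were called higher and 0% lower. Of the subunits, 7 passed the test, all higher (9.09%; 0.424% of all tested genes were called higher and 0.996% lower). They were Ndufb7, Ndufb11, Ndufb3 and Ndufv2 of complex I, Uqcrh of complex III, Cox6b1 of complex IV and Atp5mk of complex V. At an unadjusted p of 0.05, 48 were higher and 1 lower, and DESeq2 called 6 higher. The calls were lost without Control replicate 1 and without H2BE replicate 2, as were nearly all calls of the difference over all tested genes. Fewer calls were left without H2BE replicate 3 or either H2BE+BDNF library, and more without BDNF replicate 1, again as over all tested genes. The median of the subunits stayed between 0.19 and 0.30 whichever library was left out. The comparisons share the Control, BDNF and H2BE libraries, so their counts are not independent of one another.

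**Figure D3:**
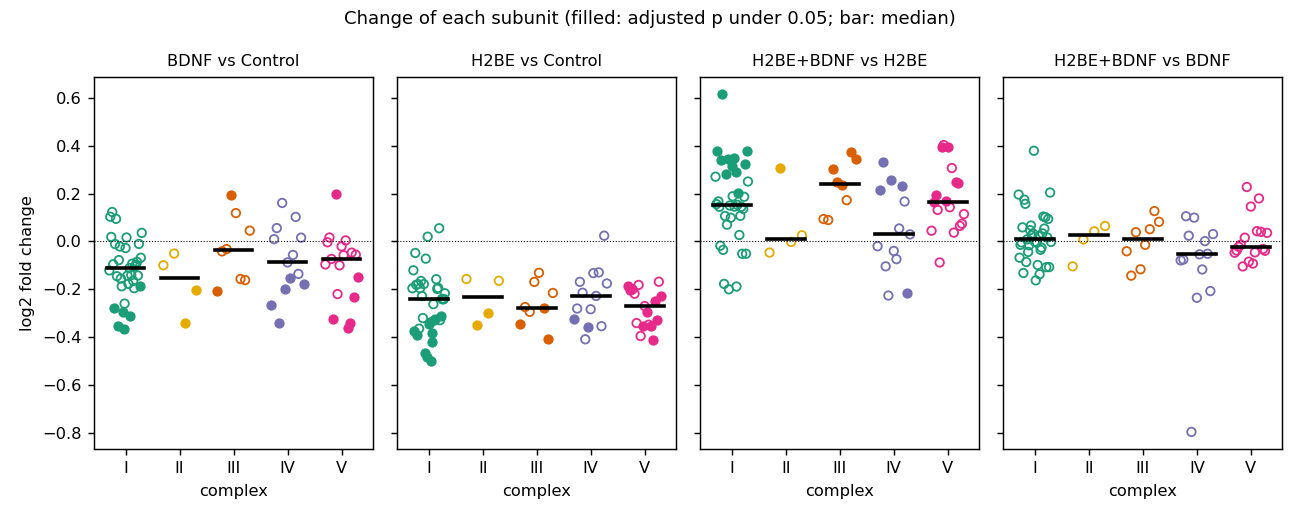
Log2 fold change of each tested subunit (vertical axis) by complex in 4 comparisons, 1 point a subunit, filled where the adjusted p was under 0.05, with a bar at the median of the complex. Medians sit between -0.28 and -0.23 for H2BE against Control and between 0.01 and 0.24 for H2BE+BDNF against H2BE.

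The tested subunits have short transcripts, and short transcripts as a class moved in the same direction. The median transcript of the subunits was 732 bases long against 2757 over all tested genes, and 53 of 77 (68.8%) were under 1 kb against 9.08%. Over all 1217 tested genes under 1 kb, the median log2 fold change was -0.15 for H2BE against Control, -0.12 for BDNF against Control, 0.056 for H2BE+BDNF against H2BE and 0.19 for the difference of responses. The 53 subunits under 1 kb stood at -0.29, -0.11, 0.15 and 0.27. When a smooth trend of each library with length and GC content was taken out, the calls for H2BE against Control went from 28 to 4 lower, namely Ndufb7, Ndufb8, Ndufs1 and Atp5f1a, while all genes went from 340 calls to 69. The median of the subunits was then -0.15, with 70 of 77 below zero and 34 lower at an unadjusted p of 0.05, and that of genes under 1 kb was -0.017. For BDNF against Control the corrected count was 7 lower and 6 higher, and the median turned from -0.098 to 0.012. The H2BE+BDNF rise over H2BE was less affected, at 20 higher and 3 lower with a median of 0.097. None of the 7 calls of the difference was kept, where 18 subunits were higher at an unadjusted p of 0.05 and the median was 0.10. Over all tested genes the calls of the difference went from 191 to 10, of which 0 were higher, so the loss is not particular to the subunits. By complex, the median difference of responses went from 0.29 to 0.14 in complex I, from 0.28 to 0.16 in complex II, from 0.30 to 0.084 in complex III, from 0.20 to -0.047 in complex IV and from 0.26 to 0.12 in complex V.

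**Figure D4:**
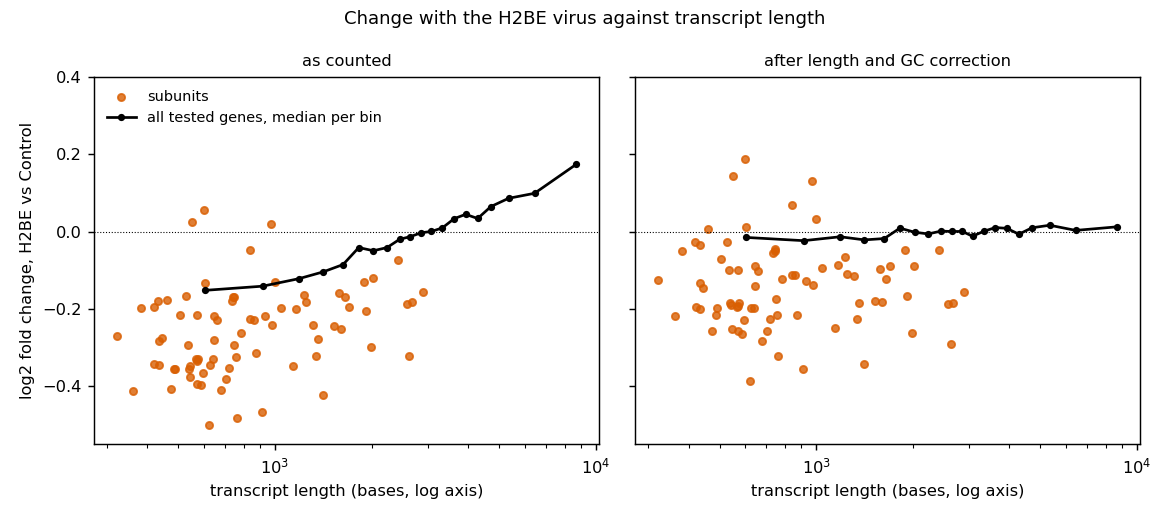
Log2 fold change for H2BE against Control (vertical axis) against transcript length in bases (log axis), as counted (left) and after the length and GC correction (right). Orange points are the 77 subunits and the black line joins medians of 20 bins of all tested genes; the line climbs with length on the left and is flat on the right, where 70 of 77 subunits are still below zero.

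Complex I has 7 nuclear core subunits, which carry the flavin and the iron-sulfur clusters, and 28 supernumerary subunits in this set, which surround them and are needed for assembly and stability. Core and supernumerary subunits had like medians in H2BE against Control, -0.24 (2 of 7 called) and -0.25 (10 of 28 called). Ndufb7, a supernumerary subunit of the membrane arm, stood at 69.7 and 66.1 CPM in Control, 60.4 and 59.5 in BDNF, 47.5 and 46.3 in H2BE and 60.4 and 59.8 in H2BE+BDNF. Its H2BE samples lay below all others, and its BDNF and H2BE+BDNF samples were nearly the same. It fell by 0.50 on the log2 scale with the H2BE virus (SE 0.081, adjusted p 0.0066), rose by 0.35 with BDNF on top (SE 0.083, adjusted p 0.0049), and the difference of its BDNF responses was 0.49 (SE 0.11, adjusted p 0.037).

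Ndufb3 and Ndufb11, likewise of the membrane arm, fell in H2BE, and their BDNF responses differed between the viruses by 0.52 and 0.53. The changes of these genes were not tested against each other. Ndufb3 had 66.3 and 63.8 CPM in Control, 48.7 and 50.5 in BDNF, 46.1 and 45.7 in H2BE and 47.7 and 54.9 in H2BE+BDNF. All 3 other groups lay below Control: it fell by 0.37 with BDNF (SE 0.081, adjusted p 0.0023) and by 0.48 with the H2BE virus (SE 0.089, adjusted p 0.0099). Ndufb11 had 95.4 and 84.4 CPM in Control, 77.8 and 76.4 in BDNF, 60.8 and 69.6 in H2BE and 86.3 and 78.6 in H2BE+BDNF. It fell by 0.47 with the H2BE virus (SE 0.089, adjusted p 0.012) and rose by 0.35 with BDNF on top of it (SE 0.091, adjusted p 0.0091), and its H2BE+BDNF samples overlap Control. Ndufb8, which also fell in H2BE, by 0.42 (SE 0.072, adjusted p 0.0078), had 121 and 119 CPM in Control and 89.9 and 86.2 in H2BE.

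Ndufv2, a core subunit with an iron-sulfur cluster in the NADH-oxidizing module, differed between the BDNF responses by 0.45 (SE 0.10, adjusted p 0.043). Its CPM were 146 and 137 in Control, 129 and 141 in BDNF, 112 and 129 in H2BE and 162 and 150 in H2BE+BDNF. The H2BE+BDNF samples were the highest of all, a rise of 0.38 over H2BE (SE 0.076, adjusted p 0.0014). Ndufa5, a subunit of the matrix arm, had the largest rise of any subunit there, 0.62 (SE 0.099, adjusted p 0.00019). It had 80.7 and 62.1 CPM in Control, 75.9 and 79.0 in BDNF, 56.4 and 55.4 in H2BE and 87.4 and 84.7 in H2BE+BDNF. The H2BE samples were below and the H2BE+BDNF samples above all others, while the Control samples were 1.30 times apart and H2BE against Control missed the threshold (-0.37, adjusted p 0.058).

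Ndufa11, a membrane arm subunit at the contact with complex III in supercomplexes and the complex I gene whose promoter is printed above, had 76.3 and 75.0 CPM in Control, 72.4 and 80.1 in BDNF, 55 and 60.9 in H2BE and 76.5 and 74.0 in H2BE+BDNF. Its 3 groups other than H2BE overlapped, with a fall of 0.38 in H2BE (SE 0.083, adjusted p 0.025) and a rise of 0.38 with BDNF on top (SE 0.084, adjusted p 0.0029). Ndufa2 (-0.39, adjusted p 0.043) and Ndufc2 (-0.33, adjusted p 0.026) also fell in H2BE. With BDNF and the control virus the called subunits other than Ndufb3 included Ndufa7 (-0.35, SE 0.075, adjusted p 0.0018), Ndufc1 (-0.31, adjusted p 0.012) and Ndufa2 (-0.28, adjusted p 0.025). Ndufa7 had 89.9 and 78.1 CPM in Control and 61.5 and 67.2 in BDNF, 73.8 and 75.1 in H2BE, and 63.7 and 68.6 in H2BE+BDNF, so both BDNF groups lay below both unstimulated groups. Of the 12 complex I calls in H2BE, 0 were kept without Control replicate 1 (adjusted p 0.17 to 0.44) and 0 without H2BE replicate 2 (0.11 to 0.48). Of the 6 calls with BDNF, 1 was kept without Control replicate 1 (0.033 to 0.39). Of the 11 rises in H2BE+BDNF, 2 were kept without H2BE replicate 2 (0.0036 to 0.20). The 4 calls of the difference were lost when Control replicate 1 was left out (0.23 to 0.29), likewise H2BE replicate 2 (0.20 to 0.30) and each H2BE+BDNF library (0.061 to 0.16 and 0.076 to 0.22).

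Complex II has 4 subunits, all nuclear: the flavoprotein Sdha, the iron-sulfur protein Sdhb and the membrane anchors Sdhc and Sdhd. Sdhb had 194 and 176 CPM in Control, 170 and 183 in BDNF, 140 and 148 in H2BE and 182 and 175 in H2BE+BDNF. Only its H2BE samples stood apart, with a fall of 0.35 in H2BE (SE 0.063, adjusted p 0.0099) and a rise of 0.31 with BDNF on top (SE 0.064, adjusted p 0.0018). Sdhc had 132 and 128 CPM in Control, 97.4 and 103 in BDNF, 104 and 105 in H2BE and 105 and 104 in H2BE+BDNF. Its Control samples lay above all others: it fell by 0.34 with BDNF (SE 0.060, adjusted p 0.00031) and by 0.30 with the H2BE virus (SE 0.063, adjusted p 0.021), and H2BE+BDNF differed from H2BE by -0.002 (SE 0.065, adjusted p 0.98).

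The other subunits of complex II moved less. Sdhd had 132 and 141 CPM in Control, 121 and 116 in BDNF, 113 and 129 in H2BE and 124 and 122 in H2BE+BDNF, and fell with BDNF by 0.20 (SE 0.068, adjusted p 0.031). Sdha, at 312 and 314 CPM in Control, 284 and 301 in BDNF, 279 and 280 in H2BE and 266 and 278 in H2BE+BDNF, was below Control in every other sample but passed no test; its H2BE change was -0.16 (SE 0.052, adjusted p 0.11). The fall of Sdhc with BDNF was called in each of 18 alternative settings, and that of Sdhd was lost in 7 of them, among these without BDNF replicate 2 and without Control replicate 2 (adjusted p 0.14 and 0.18). The H2BE falls of Sdhb and Sdhc were lost without Control replicate 1 (0.26 to 0.28) or H2BE replicate 2 (0.19 to 0.27).

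All 8 tested subunits of complex III lay higher in both H2BE+BDNF samples than in both H2BE samples, and 5 passed the test. Uqcrh, the hinge protein that assists electron transfer to cytochrome c, had 159 and 129 CPM in Control, 123 and 132 in BDNF, 107 and 108 in H2BE and 146 and 133 in H2BE+BDNF. It fell by 0.41 in H2BE (SE 0.080, adjusted p 0.015), rose by 0.37 with BDNF on top (SE 0.081, adjusted p 0.0026), and its BDNF responses differed by 0.53 (SE 0.11, adjusted p 0.031). Its Control samples were 1.23 times apart, and without Control replicate 1 the difference was 0.39 with an adjusted p of 0.25. That call was also lost when either H2BE library (adjusted p 0.18 for replicate 2 and 0.057 for replicate 3) or replicate 2 of H2BE+BDNF (0.11) was left out.

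Uqcrc1, a core protein on the matrix side, was the complex III subunit that rose with BDNF under both viruses. Its CPM were 245 and 232 in Control, 261 and 278 in BDNF, 208 and 215 in H2BE and 252 and 250 in H2BE+BDNF. The rise was 0.19 with the control virus (SE 0.052, adjusted p 0.0083; 0.089 without Control replicate 2) and 0.25 with the H2BE virus (SE 0.054, adjusted p 0.0028), and the responses differed by 0.053 (SE 0.075, adjusted p 0.78). Uqcrq (0.34, SE 0.073, adjusted p 0.0022) and Uqcrb (0.30, SE 0.089, adjusted p 0.018) also rose in H2BE+BDNF over H2BE. Uqcr10 had 106 and 102 CPM in Control, 90.2 and 89.0 in BDNF, 80.7 and 82.4 in H2BE and 87.7 and 86.9 in H2BE+BDNF, and thus lay below Control in the 3 other groups. It fell with BDNF by 0.21 (adjusted p 0.019) and with the H2BE virus by 0.34 (adjusted p 0.016), and the Rieske protein Uqcrfs1 fell with the H2BE virus by 0.28 (adjusted p 0.026). Leaving out Control replicate 1 (adjusted p 0.15) or BDNF replicate 2 (0.078) ended the call of Uqcr10 with BDNF. The 3 falls of complex III in H2BE were lost without Control replicate 1 (0.26 to 0.37) or H2BE replicate 2 (0.18 to 0.37), and 2 of the 5 rises in H2BE+BDNF were kept without H2BE replicate 2.

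Complex IV was the most mixed. Cox6b1, which faces the intermembrane space near the cytochrome c site, had 262 and 230 CPM in Control, 209 and 215 in BDNF, 192 and 193 in H2BE and 233 and 229 in H2BE+BDNF. It fell with BDNF by 0.20 (SE 0.059, adjusted p 0.017) and with the H2BE virus by 0.36 (SE 0.062, adjusted p 0.0083), yet rose by 0.26 with BDNF on top of the H2BE virus (SE 0.063, adjusted p 0.0055). The responses thus had opposite signs, and their difference was 0.46 (SE 0.086, adjusted p 0.023), and this call was lost when Control replicate 1 (0.22), H2BE replicate 2 (0.11) or either H2BE+BDNF library (0.064 and 0.056) was left out.

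Cox4i1 and Cox6a1, regulatory nuclear subunits, had their highest levels in Control and showed no such return. Cox4i1 had 382 and 341 CPM in Control, 289 and 306 in BDNF, 291 and 282 in H2BE and 274 and 293 in H2BE+BDNF; it fell by 0.27 with BDNF (SE 0.056, adjusted p 0.0016) and by 0.32 with the H2BE virus (SE 0.058, adjusted p 0.0099). Cox6a1, whose promoter is printed above, had 358 and 324 CPM in Control, 259 and 271 in BDNF, 298 and 281 in H2BE and 251 and 291 in H2BE+BDNF; it fell by 0.34 with BDNF (SE 0.064, adjusted p 0.00059), in each of 18 alternative settings. Ndufa4, first assigned to complex I and now placed in complex IV, fell by 0.18 with BDNF (adjusted p 0.023). Without Control replicate 1, 1 of the 5 falls of complex IV with BDNF was kept (adjusted p 0.017 to 0.35), and the H2BE falls of Cox4i1 and Cox6b1 were lost (0.26 for each), as they were without H2BE replicate 2 (0.11 to 0.13).

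Cox5b, a zinc-binding subunit on the matrix side, rose in H2BE+BDNF over H2BE by 0.33 (SE 0.068, adjusted p 0.0016), from 136 and 145 CPM to 186 and 168. Cox5a (0.21, adjusted p 0.043) and Cox7b (0.23, adjusted p 0.048) rose there close to the threshold, and both were lost with DESeq2 and without H2BE replicate 2 or 3. Cox8a was the only subunit called lower in that comparison. Its CPM were 220 and 214 in Control, 222 and 219 in BDNF, 213 and 228 in H2BE and 199 and 181 in H2BE+BDNF, so that 3 groups overlapped and the last lay below them. The fall was 0.22 (SE 0.062, adjusted p 0.015), and leaving out replicate 3 of H2BE or of H2BE+BDNF ended the call (adjusted p 0.13 and 0.20).

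Complex IV also has isoforms that are typical of muscle, testis or other tissues, and these were rare here. Cox4i2, Cox7a1, Cox7b2 and Cox8b had 4 to 60 counts over all libraries, against 382 and 341 CPM in Control for Cox4i1 and 220 and 214 for Cox8a. Cox6a2, the striated muscle partner of Cox6a1 that is also found in some interneurons, had 15.1 and 14.1 CPM in Control, 11.5 and 20.5 in BDNF, 11.7 and 10.3 in H2BE and 8.71 and 10.4 in H2BE+BDNF. Cox6b2, the testis partner of Cox6b1, had 3.23 and 1.22 CPM in Control, 1.02 and 3.11 in BDNF, 2.25 and 1.38 in H2BE and 1.67 and 2.02 in H2BE+BDNF. Samples of 1 group differed up to 1.79 times in Cox6a2 and up to 3.04 times in Cox6b2, and neither passed a test in any comparison. Cox7a2, the common isoform, had 128 and 118 CPM in Control, and it too passed no test.

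**Figure D5:**
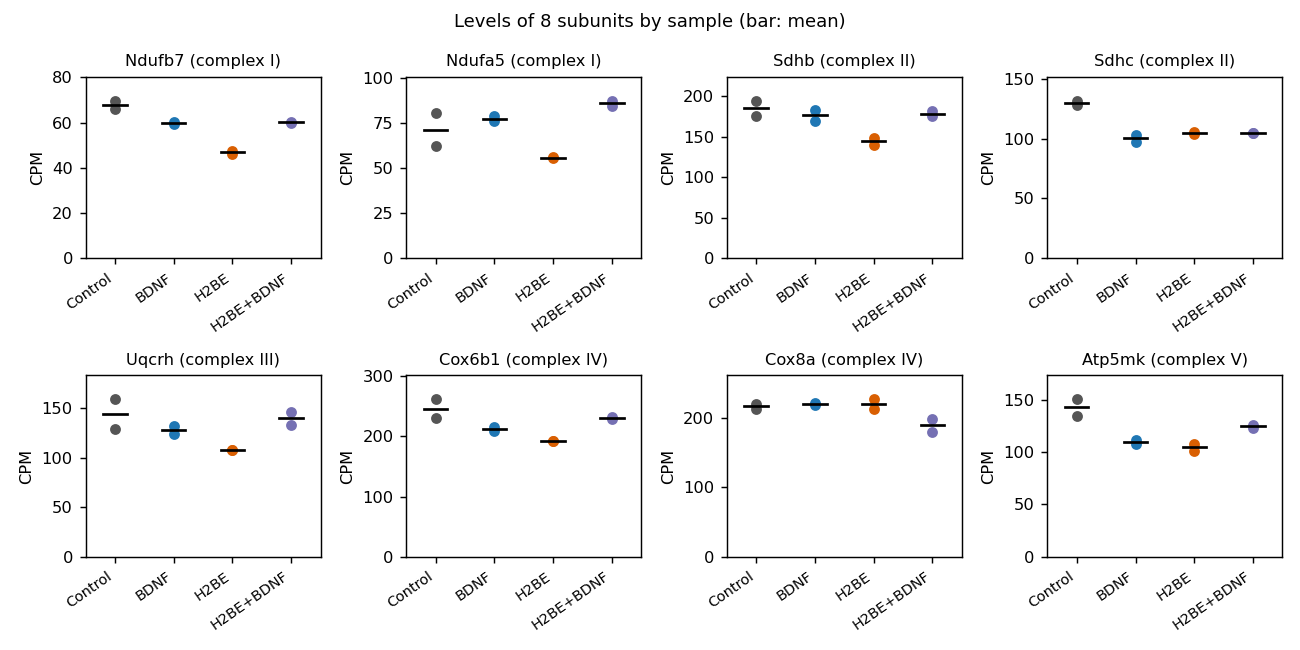
CPM (vertical axis from 0) of 8 subunits in the 4 groups, 1 point a sample and a bar at the mean of 2 samples. Ndufb7, Ndufa5, Sdhb, Uqcrh and Cox6b1 are lowest in H2BE and higher in H2BE+BDNF, Sdhc and Atp5mk are highest in Control, and Cox8a is lowest in H2BE+BDNF.

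In complex V, the catalytic F1 head, the rotating c-ring and the stalk and membrane subunits all had negative medians in H2BE against Control: -0.20 over 5 subunits (2 called), -0.35 over 3 (1 called) and -0.29 over 9 (6 called). Atp5f1b had 1561 and 1547 CPM in Control, 1523 and 1569 in BDNF, 1341 and 1339 in H2BE and 1465 and 1547 in H2BE+BDNF. Its fall in H2BE, by 0.20 (SE 0.044, adjusted p 0.022), and its rise from there, by 0.16 (SE 0.044, adjusted p 0.011), were small but larger than the spread between samples. Atp5mk, a small membrane subunit (DAPIT) tied to ATP synthase dimers, had 151 and 135 CPM in Control, 108 and 111 in BDNF, 101 and 108 in H2BE and 126 and 124 in H2BE+BDNF. It fell by 0.34 with BDNF (SE 0.061, adjusted p 0.00039) and by 0.41 with the H2BE virus (SE 0.065, adjusted p 0.0056), and rose by 0.25 with BDNF on top (SE 0.067, adjusted p 0.010). The difference of its responses, 0.59 (SE 0.090, adjusted p 0.011), had the smallest adjusted p of any subunit, and was lost without Control replicate 1 (0.13) or H2BE replicate 2 (0.084).

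The c-ring genes Atp5mc1, Atp5mc2 and Atp5mc3 code for the same mature protein; their changes were not tested against one another. Atp5mc1 had 152 and 142 CPM in Control, 169 and 169 in BDNF, 124 and 135 in H2BE and 173 and 168 in H2BE+BDNF. It rose with BDNF under the control virus by 0.20 (SE 0.060, adjusted p 0.018; 0.15 without Control replicate 2) and under the H2BE virus by 0.40 (SE 0.064, adjusted p 0.00021). Atp5mc3 had 352 and 328 CPM in Control, 293 and 327 in BDNF, 264 and 264 in H2BE and 284 and 312 in H2BE+BDNF; it fell in H2BE by 0.35 (SE 0.058, adjusted p 0.0069). Its rise from H2BE, 0.17 (adjusted p 0.045), was lost in 14 of 18 alternative settings. Atp5mc2 had 18.5 and 17.9 CPM in Control, 16.7 and 16.3 in BDNF, 15.6 and 12.7 in H2BE and 19 in both H2BE+BDNF samples, and passed no test; the difference of its responses was 0.62 (SE 0.20, adjusted p 0.12).

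Stalk and membrane subunits followed either pattern. Atp5me (subunit e) had 99.5 and 86.6 CPM in Control, 91.6 and 92.7 in BDNF, 77.6 and 77.3 in H2BE and 101 and 104 in H2BE+BDNF, a rise over H2BE of 0.40 (SE 0.077, adjusted p 0.0011). Atp5pb, subunit b of the peripheral stalk, fell in H2BE by 0.25 (SE 0.052, adjusted p 0.019) and rose with BDNF on top by 0.24 (SE 0.052, adjusted p 0.0022). Atp5mj, a small subunit of the membrane part, had 105 and 93.6 CPM in Control, 76.6 and 75.4 in BDNF, 78.8 and 75.1 in H2BE and 75.8 and 83.3 in H2BE+BDNF. It fell with BDNF by 0.36 (SE 0.074, adjusted p 0.0012), in each of 18 alternative settings, and with the H2BE virus by 0.35 (SE 0.079, adjusted p 0.025). Atp5pd (subunit d) fell with BDNF (-0.23, adjusted p 0.031) and with the H2BE virus (-0.33, adjusted p 0.046), Atp5mf (subunit f) with the H2BE virus (-0.29, adjusted p 0.019), and Atp5f1e (epsilon) with BDNF (-0.33, adjusted p 0.0099). Atp5mg (subunit g) had Control samples 1.61 times apart, 21.5 and 13.4 CPM, and passed no test. Of the 9 complex V falls in H2BE, 0 were kept without Control replicate 1 (adjusted p 0.18 to 0.52) and 0 without H2BE replicate 2 (0.11 to 0.49). Of the 5 falls with BDNF, 2 were kept without Control replicate 1 (0.016 to 0.45) and 2 without BDNF replicate 1 (0.00066 to 0.092), and of the 7 rises in H2BE+BDNF, 3 were kept without H2BE replicate 2 (0.012 to 0.26).

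Among the members that are no structural subunits, Atp5if1 codes for the inhibitor that binds ATP synthase when it would run backwards. It had 151 and 154 CPM in Control, 127 and 125 in BDNF, 123 and 137 in H2BE and 142 and 142 in H2BE+BDNF. It fell with BDNF by 0.27 (SE 0.061, adjusted p 0.0026), and its BDNF responses differed by 0.40 (SE 0.090, adjusted p 0.037), which, like the 7 subunit calls, was lost with the length and GC correction, without Control replicate 1 and without H2BE replicate 2. Cox7a2l, which helps to join complexes III and IV, fell with BDNF by 0.24 (SE 0.070, adjusted p 0.015), from 81.2 and 80.2 CPM to 69.3 and 67.7. That call was lost in 7 of 18 alternative settings, among them those leaving out Control replicate 1 (adjusted p 0.10), Control replicate 2 (0.055) or BDNF replicate 2 (0.058). The complex II assembly factors were at low levels: Sdhaf4 fell with BDNF by 0.60 (SE 0.17, adjusted p 0.011), from 12.9 and 10.6 CPM to 7.38 and 8.18. It lost its call in 4 of 18 settings: the value was -0.45 (adjusted p 0.22) when Control replicate 1 was left out and -0.39 with every library thinned to equal depth (adjusted p 0.22). Sdhaf1 rose by 0.70 (SE 0.26, adjusted p 0.046), from 2.80 and 3.31 CPM to 4.60 and 5.15, a call lost in 13 of 18 alternative settings. Ndufa4l2 and the copies Ndufb11b, Ndufb4c and Ndufs6b had 5 to 27 counts in all libraries.

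The genes that work beside these subunits did not all follow them. Of the mitochondrially encoded subunits 8 of 13 were tested, and in H2BE against Control 4 rose and 0 fell, with a median of 0.24: ND4 (0.57, SE 0.049, adjusted p 1.2e-05), ND2 (0.34), ND5 (0.36) and CYTB (0.30). ND4, a proton-pumping core subunit of complex I, stood at 1442 ± 145 CPM in Control and 2243 ± 81.4 in H2BE, opposite in sign to the median of the nuclear subunits of its complex. With Control replicate 1 left out, ND4 alone of these 4 kept its call in this comparison. With BDNF under the control virus ND5 rose by 0.17 (adjusted p 0.027) and ND4 by 0.14 (adjusted p 0.035), calls lost in 2 and 4 of 18 alternative settings. Under the H2BE virus ND4 fell with BDNF by 0.19 (adjusted p 0.0087; lost in 4 of 18), and the difference of its responses was -0.33 (SE 0.069, adjusted p 0.033; lost in 5 of 17, namely without Control replicate 1 or any 1 sample of either H2BE virus group). Cyc1 and Cycs (cytochrome c1 and cytochrome c) rose with BDNF under the control virus, by 0.16 and 0.29, and under the H2BE virus, by 0.31 and 0.43, and neither passed the test for H2BE against Control (-0.18 and -0.23). The Cyc1 call under the control virus was lost in 9 of 18 settings. Ndufab1, the acyl carrier subunit of complex I, stood at 30.9 ± 0.325 CPM in Control and 23.5 ± 0.0268 in H2BE (-0.35, adjusted p 0.094) and rose by 0.32 from there with BDNF (adjusted p 0.048), a call lost in 13 of 18 settings.

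For 13 citrate cycle enzymes, 0 were called in H2BE against Control (median -0.095), 3 rose with BDNF (Ogdh, Cs and Idh3a) and 8 rose in H2BE+BDNF over H2BE, with 0 lower in each case. Of 46 tested assembly factors of the respiratory complexes, 0 were called in H2BE against Control (median -0.18), 2 rose and 5 fell with BDNF, and 9 rose and 0 fell in H2BE+BDNF over H2BE. Of 18 regulators of mitochondrial biogenesis, Sp1 and Pprc1 rose with BDNF, by 0.88 and 0.49, and 0 were called in H2BE against Control or in H2BE+BDNF over H2BE. These lists were called at the same rule as all tested genes. Of all tested genes, 16.8% were called higher and 14.7% lower with BDNF. The calls with BDNF among the assembly factors and the regulators were no more frequent than that. In H2BE+BDNF over H2BE, 13.5% of all tested genes were called higher and 12.4% lower. In H2BE against Control, 1.54% were called higher and 0.989% lower.

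Summed markers of microglia, oligodendrocytes and progenitors were higher in both BDNF groups. The summed CPM of 7 microglial markers, 3 of them tested, was 9.05 to 9.79 in Control and 5.34 to 6.75 in H2BE, but 21.9 to 23.7 in BDNF and 22.3 to 23.2 in H2BE+BDNF. The sum of 7 oligodendrocyte markers (6 tested) was 35.1 to 39.6 in Control, 39.7 to 44.2 in H2BE, 65.0 to 77.9 in BDNF and 75.0 to 79.8 in H2BE+BDNF. The sum of 6 progenitor markers was 107 in both Control samples, 95.5 to 97.9 in H2BE, 223 to 240 in BDNF and 231 to 235 in H2BE+BDNF. The sum of 7 astrocyte markers was 60.2 to 106 over all samples, with the groups overlapping except that H2BE+BDNF was lowest. Pan-neuronal markers (5) summed to 4786 to 5453 CPM in all samples, so the cultures carry the markers of their label, and none of the marker lists had a gene at 0 in every library. These sums rest on few genes. In BDNF against Control the median log2 fold change of the tested microglial markers was -0.45 and Cd68 alone was called; in H2BE+BDNF against H2BE it was 2.38, with Cd68 and Aif1 called. For the oligodendrocyte markers the medians were 0.12 and -0.018, and Mbp alone was called in each. The progenitor markers shifted more evenly. In BDNF against Control 5 of 6 were called higher (Vim, Nes, Mki67, Sox2 and Top2a), with a median of 1.02. In H2BE+BDNF against H2BE 2 were called higher (Vim and Mki67), with a median of 0.75. In H2BE against Control 0 of these microglial, oligodendrocyte, progenitor and pan-neuronal markers were called. Neuron-class markers did shift in that comparison: the sum of 7 excitatory markers was 916 to 934 CPM in Control and 1044 to 1064 in H2BE, with Camk2a called higher, and the sum of 5 interneuron markers was 1928 to 2042 in Control and 1670 to 1762 in H2BE, with Sst called lower. Neuron markers shifted with BDNF as well. In BDNF against Control, 2 of 7 excitatory markers were called higher and 4 lower. Of 5 interneuron markers 1 was higher and 1 lower, and of 5 pan-neuronal markers 1 was higher and 2 lower. In H2BE+BDNF against H2BE the calls were 2 higher and 3 lower, 2 and 2, and 1 and 3, in the same order. The part of these marker shifts in the changes of the subunits was not tested.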

How the data were processed

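The authors deposited raw counts per Ensembl gene for 10 libraries and a table of normalized counts, a signal in which each library is divided by a size factor; the latter gave gene symbols only. Per the submitters' processing notes the build was mm10 and SAMtools, DESeq2 and deepTools were used; the sources used here do not name the aligner, counter or annotation. From the deposited counts, 13452 genes passed filterByExpr (minimum count 10, minimum total 15) and were fitted over 8 libraries, 2 a group, with TMM scaling and the robust quasi-likelihood test of edgeR 4.0.16 (R 4.3.3, limma 3.58.1), a mean per group and 4 residual degrees of freedom. Benjamini-Hochberg adjusted p-values run over all tested genes of a comparison, and 0.05 was the threshold. Every adjusted p is from edgeR unless DESeq2 (1.42.0) is named.

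Replicate 3 of Control and BDNF holds 73.7% and 61.9% of the counts of replicate 1. Levels are CPM scaled by TMM. Transcript length is the median of protein-coding transcripts in GENCODE M21. The length and GC correction is a lowess (span 0.3) of each library's log2 deviation (prior count 2), used as an offset. Low depth limits small changes: a library of 5058074 counts gives few counts for genes under 1 CPM. No per-sample column was left unassigned.

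Members, complexes and related lists were chosen with earlier results of these data known. Named in the text are up to 4 called subunits of smallest p per complex, comparison and direction, the called differences of responses, the isoform sets, complex II, the highest and lowest per length, untested members and the 3 least even between samples. Ndufs1, Atp5f1a and the named genes of related lists were singled out after their values were seen.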

Additional observations from a re-analysis of the deposited data

Results flagged for a closer look

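In 8 members the response to BDNF differed between the viruses by a direct test of the difference (edgeR, adjusted p under 0.05), which is the response under the H2BE virus minus that under the control virus, on the log2 scale. In complex I the difference was 0.49 for Ndufb7 (-0.14 under the control virus and 0.35 under the H2BE virus), 0.53 for Ndufb11 (-0.19 and 0.35), 0.45 for Ndufv2 (-0.07 and 0.38) and 0.52 for Ndufb3 (-0.37 and 0.15). It was 0.53 for Uqcrh of complex III (-0.16 and 0.37), 0.46 for Cox6b1 of complex IV (-0.20 and 0.26) and 0.59 for Atp5mk of complex V (-0.34 and 0.25). For the inhibitor Atp5if1 it was 0.40 (-0.27 and 0.13). Each of the 8 had a response below zero under the control virus and above zero under the H2BE virus with these settings; over the alternative settings the response under the control virus reached 0.031 for Ndufb7 and 0.036 for Ndufv2. Both responses were themselves called for Cox6b1 and Atp5mk. The mitochondrially encoded ND4, which is no member, had a called difference of the other sign, -0.33 (0.14 under the control virus and -0.19 under the H2BE virus). None of the 8 members was called after the length and GC correction, where the 7 subunits had differences of 0.27 to 0.40 and adjusted p of 0.19 to 0.36. Of all 13452 tested genes 0 were called higher in the difference after that correction.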

How the results depend on the processing

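No subunit median or named member, and none of the related genes called in a comparison, turned to a called change of the opposite sign in the alternatives run; the subunit median with BDNF turned sign with the length and GC correction. The counts of related lists and markers were not rerun. DESeq2 gave 1 subunit higher and 7 lower with BDNF and 18 higher in H2BE+BDNF against H2BE. Over all genes fitted it gave 1525, 987 and 1166 in the same order, against 2257, 1971 and 1822 as tested above. Without the filter on low counts there was 1 lower in H2BE+BDNF against BDNF and 11 higher in the difference of responses. Over all genes fitted these were 130 and 122, against 2 and 57 as tested above. With all 10 libraries as replicates, which counts the subsets again, 38 fell with BDNF (median -0.15) and 56 with the H2BE virus, and the difference had 32 higher (median 0.31). Over all genes fitted these were 3069, 809 and 485, against 1971, 133 and 57 as tested above. The third replicates in place of the first gave 0 higher with BDNF (median -0.16) and 14 higher in the difference (median 0.31). Over all genes fitted these were 2249 and 113. Fits of only the groups compared gave 12 lower with BDNF and 48 lower with the H2BE virus. Over all genes fitted these were 1584 and 490, against 1971 and 133 as tested above. Thinning to the smallest library gave 1 higher with BDNF and 4 higher in the difference, where 1878 and 30 of all genes fitted were higher.

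The length and GC correction gave 6 higher and 7 lower with BDNF (median 0.012), 4 lower with the H2BE virus (median -0.15), 3 lower in H2BE+BDNF against H2BE (median 0.097), a median of -0.043 between the BDNF groups, and 0 higher in the difference (median 0.10). Over all tested genes it gave 2280 higher and 1889 lower with BDNF and 15 lower with the H2BE virus. It gave 1637 lower in H2BE+BDNF against H2BE and 0 higher in the difference over the same genes. Same-numbered samples did not deviate together (correlations -0.30 to -0.17). With 2 samples a group the deviations mirror each other, so these values cannot decide whether the numbers pair the samples. A fit with the replicate block gave 7 lower with the H2BE virus, where 26 of all tested genes were lower, against 133 as tested above. The replicate block with the correction gave 5 higher and 4 lower with BDNF (median 0.012), 0 lower with the H2BE virus (median -0.18), a median of 0.098 in H2BE+BDNF against H2BE, 1 lower between the BDNF groups (median -0.066), and 0 higher and 1 lower in the difference (median 0.10). Over all tested genes it gave 1975 higher and 1588 lower with BDNF and 1 lower with the H2BE virus. Between the BDNF groups 62 of them were lower, and in the difference 2 were higher and 32 lower.

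Leaving out each library in turn gave ranges as follows. With BDNF 0 to 3 were higher and 6 to 18 lower (median -0.14 to -0.065). With the H2BE virus 0 were higher and 0 to 45 lower (median -0.30 to -0.18). In H2BE+BDNF against H2BE 10 to 32 were higher and 0 to 1 lower (median 0.13 to 0.18). Between the BDNF groups 0 were higher and 0 to 1 lower (median -0.019 to 0.0029). In the difference 0 to 16 were higher and 0 lower (median 0.19 to 0.30). Calls over all tested genes moved with the library left out as well, so a change in these counts is not by itself particular to the subunits. An arm left with 1 sample was assumed to vary like the others. The cause of these shifts was not tested. With 2 samples a group and libraries of 5058074 to 14142545 counts, changes as small as most of these are near the limit of what could be called.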
